A study of Mus musculus with 30 samples.

Results

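Cytosolic ribosomal proteins are the protein components of the ribosomes that translate nuclear mRNAs, and their genes were followed here in mouse liver. Members were all genes whose official symbol is that of a ribosomal protein of the large subunit (Rpl), the small subunit (Rps) or the stalk (Rplp), read on probe sets that carry exactly 1 gene symbol. Symbols with the pseudogene mark -ps and the ribosomal S6 kinases were left out. Positions of probe sets were not checked, so copies of a gene elsewhere in the genome may have been read under its symbol. Rpl21, for example, has 41 probe sets and Rpl29 has 24. The rule gave 73 genes of the 18820 genes on the array, through 380 of its 35556 probe sets, and each gene was read from its brightest probe set, by the mean of all 30 arrays. The rule itself uses no value of a comparison, but it was set with earlier results of these data known.

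The livers came from male mice of about 8 weeks on a C57BL/6 background, 1 array for each liver. Wild-type mice, PPARα-/- mice, CREB3L3-/- mice and mice lacking both factors (PPARα/CREB3L3-/-, the double knockout of the figures) were studied after a fast of 16 h or after 4 days on a ketogenic diet. Each group held 4 livers, except the PPARα-/- groups, which held 3 livers in each regimen. PPARα-/- mice carried the Pparatm1Gonz allele, both deletions were present in every tissue of the animal, and the ketogenic groups were fed ad libitum until they were killed. Feeding and diet therefore cannot be told apart in any comparison of the regimens. In whole liver, moreover, a change in the make-up of cells cannot be told apart from a change in the RNA of each cell.

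PPARα is a nuclear receptor that drives fatty acid oxidation and ketogenesis in the liver. CREB3L3, a transcription factor that governs lipoprotein and lipid genes, is made as a precursor in the endoplasmic reticulum and set free by cleavage in the Golgi. A ribosome contains 1 copy of nearly every ribosomal protein, and cells make these proteins in matched amounts together with ribosomal RNA. Ribosomal protein mRNAs are abundant and begin with a terminal oligopyrimidine tract, an unbroken run of C and T through which their translation follows nutrient supply and mTOR signalling. Several genes have paralogs with a tissue-restricted or stress-dependent expression.

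The sequence around the annotated start was available for 59 of the 73 genes, in 71 windows, because 10 genes have several annotated starts. Each window holds the 15 bases before the start and the first 15 bases of the transcript. The examples below are genes on which the results turn, with the longest run of C and T in capitals, and the last 2 are the paralogs that behaved differently from the rest.
Rpl35: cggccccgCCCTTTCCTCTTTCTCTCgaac
Rps9: accgccttgTCTCTCTTTgtctcgggcctg
Rps15a: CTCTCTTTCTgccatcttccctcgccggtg
Rps6: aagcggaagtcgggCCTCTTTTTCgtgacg
Rpl39: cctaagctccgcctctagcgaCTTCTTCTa
Rps12: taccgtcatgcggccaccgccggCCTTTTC
Rplp0: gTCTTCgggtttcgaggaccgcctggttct
Rps13: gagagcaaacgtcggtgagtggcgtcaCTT
Rps27: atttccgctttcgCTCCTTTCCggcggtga
Rps27l: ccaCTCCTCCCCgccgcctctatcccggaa
Rpl7l1: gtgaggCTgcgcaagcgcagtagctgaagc

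These windows are RefSeq sequence of build GRCm38.p6, read in the direction of the gene. Rpl35 lies at chr2:39005117-39005146 on the minus strand, Rps9 at chr7:3704026-3704055 on the plus strand, Rps15a at chr7:118116133-118116162 on the minus strand and Rps6 at chr4:86857353-86857382 on the minus strand. Rpl39 lies at chrX:37085208-37085237, Rps12 at chr10:23787195-23787224, Rps13 at chr7:116334176-116334205, Rps27 at chr3:90213634-90213663 and Rpl7l1 at chr17:46782642-46782671, all on the minus strand. Rplp0 lies at chr5:115559452-115559481 and the upstream start of Rps27l, 1 of 2, at chr9:66946071-66946100, both on the plus strand. A run of at least 8 C or T was present in 27 of the 71 member windows (38.0%) and in 12.0% of the 32841 windows of all genes. In the 300 bases from 250 before to 50 after the start, the letters CCGGAA, on either strand, were found in 47.9% of member promoters and 14.9% of all promoters, and GCCATC in 26.8% and 14.1%. The letters TATAAA occurred in 9.86% of member promoters and 13.6% of all promoters. The run of 18 in Rpl35 and the run of 2 in Rpl7l1 were the extremes among the windows shown. Runs were counted anywhere in the window, and some, for example those of Rps15a and Rps27l, lie wholly before the annotated start. A run in a window is therefore not by itself a tract at the start of the mRNA. An annotated start can lie some bases away from the one used in liver, so a short run in a window says only that these letters are not in it.

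Array values were log2 intensities after the authors' Robust Multichip Averaging (RMA), with array medians between 4.22 and 4.38. Arrays within a group correlated at r = 0.978 to 0.990 over all probe sets. Creb3l3 itself was between 4.29 and 5.36 in the CREB3L3-/- and PPARα/CREB3L3-/- livers and between 9.49 and 11.3 in all others, so the labels held for CREB3L3. Ppara read 6.62 to 9.35 in the livers lacking PPARα and 8.01 to 10.5 in the others, and where its probes lie relative to the deletion is not given in the sources used here, so it checks no label. The hepatocyte genes Alb and Ttr were near the top of the scale in every liver, at 12.9 or more for Alb and 12.1 or more for Ttr. A change was called where limma, a linear model that pools the spread over all probe sets, gave P under 0.001 and the fold exceeded 1.2. The adjusted p values follow Benjamini and Hochberg and take in the 35556 probe sets of a comparison.

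Most members were among the brightest genes of the array. Their means over 30 arrays ran from 2.50 (Rpl39l) to 12.4 (Rpl10), with a median of 10.7, and 60 of the 73 exceeded 9. The 3 highest were Rpl10, Rpl28 and Rpl17, and the 3 lowest, Rpl39l, Rpl3l and Rpl10l, are paralogs of Rpl39, Rpl3 and Rpl10 that lay below the medians of all arrays. Other members were dim on the probe sets used and had brighter ones that carry more than 1 symbol and fell outside the rule, among them Rplp2, Rps19, Rpl14, Rpl22, Rpl26, Rpl30 and Rpl35a. Intensities of different probe sets are not comparable as amounts, so these ranks describe the array and not the abundance of the mRNAs.

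To summarise a liver, each member was expressed relative to its own mean over all 30 arrays and the median of the 73 genes was taken. Wild-type livers had values of -0.36 to -0.33 when fasted and -0.33 to -0.16 on the ketogenic diet. Fasted livers lay between -0.26 and -0.16 in PPARα-/- mice, between -0.19 and -0.09 in CREB3L3-/- mice and between -0.32 and -0.22 in PPARα/CREB3L3-/- mice. On the ketogenic diet the corresponding ranges were 0.44 to 0.48, 0.25 to 0.38 and 0.49 to 0.55. The 11 livers of knockout mice on the ketogenic diet therefore lay above all 19 other livers, and among the ketogenic knockouts the CREB3L3-/- livers lay below both groups that lack PPARα.

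**Figure D1:**
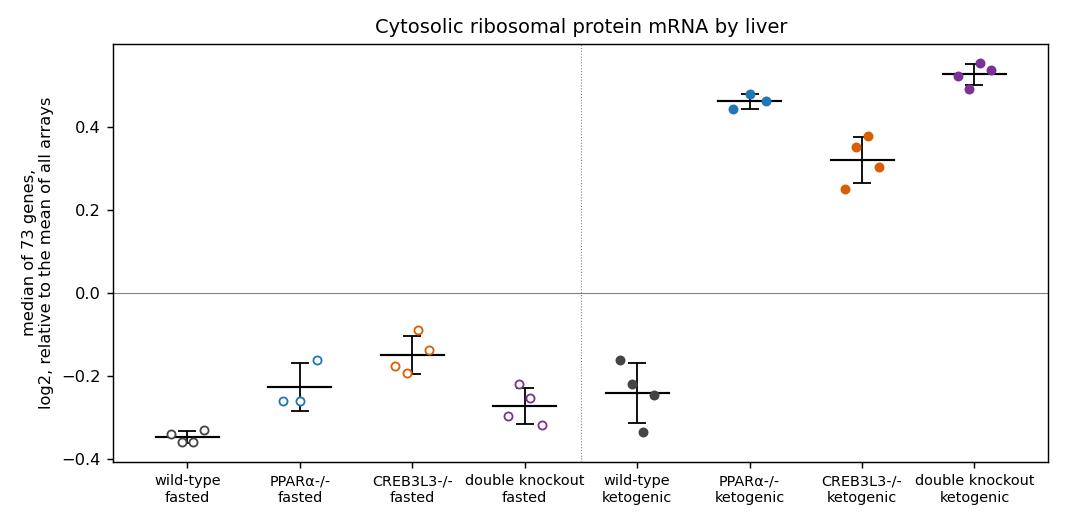
Median of the 73 ribosomal protein genes in each of the 30 livers (points; open, fasted; filled, ketogenic), in log2 units relative to each gene's mean over all arrays; horizontal lines are group means and error bars are SD. The 3 knockout groups on the ketogenic diet lie between 0.25 and 0.55, and all other livers lie between -0.36 and -0.09.

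Most members were highest in a ketogenic group lacking PPARα and lowest in fasted wild-type livers. Of the 73 genes, 54 had their highest group mean in PPARα/CREB3L3-/- mice on the ketogenic diet, 15 in PPARα-/- mice on this diet and 3 in CREB3L3-/- mice on this diet. Fasted wild-type livers gave the lowest mean for 50 genes and wild-type livers on the ketogenic diet for 9. The same counts were not made over all genes of the array, so they describe the members alone. The genes that varied most between groups were Rps20, Rpl14 and Rpl39, with SDs of the 8 group means of 0.68, 0.68 and 0.66. The 3 dim paralogs Rpl39l, Rpl3l and Rpl10l varied least, at 0.10 to 0.17, and the median SD between livers of 1 group was 0.08 over all members and groups.

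**Figure D2:**
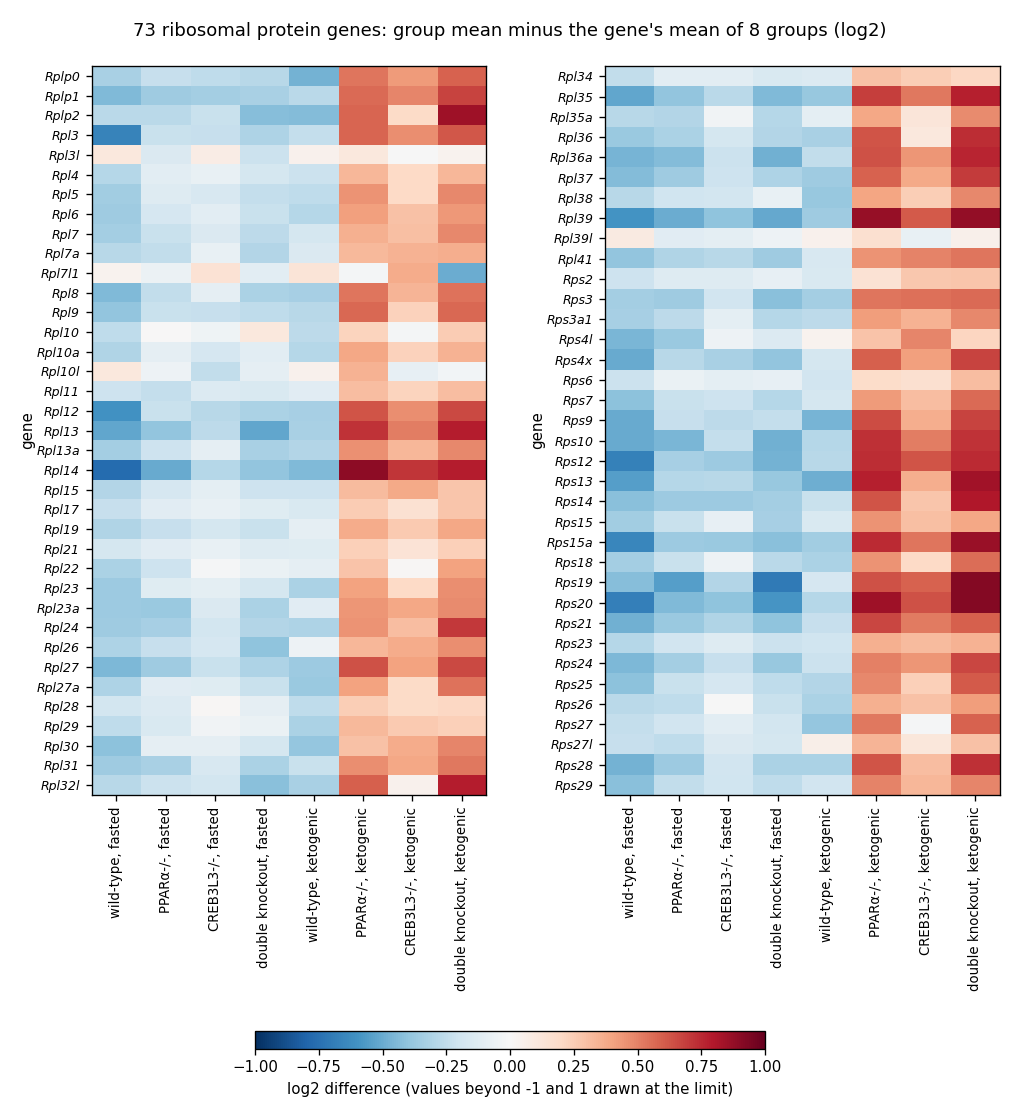
Mean log2 intensity of each of the 73 genes (rows) in the 8 groups (columns), minus the gene's mean over the 8 groups; red is higher and blue is lower. The 3 right-hand columns of each panel, the knockouts on the ketogenic diet, are red for nearly all genes. Among the exceptions is Rpl7l1 in double knockout (PPARα/CREB3L3-/-) mice, where it is blue.

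What does the loss of either factor do to these mRNAs during a ketogenic diet? In PPARα-/- livers 65 of the 73 ribosomal protein genes were higher than in wild-type livers and 0 were lower, against 6.11% of all probe sets higher and 4.81% lower. The median difference was 0.72 on the log2 scale, a 1.64-fold difference, and that of all probe sets was 0.01. In CREB3L3-/- livers 62 were higher and 0 lower, against 12.8% and 8.56% of all probe sets, with a median of 0.56 (1.47-fold) beside -0.06 for all probe sets. In PPARα/CREB3L3-/- livers 67 were higher and 1 lower, against 7.11% and 6.87%, with a median of 0.78 (1.72-fold) beside 0.01. The rise was shared by 61 genes in all 3 knockouts, and the 3 comparisons have their wild-type livers in common. The share of all probe sets higher in all 3 was not counted, and it cannot exceed the 6.11% higher in PPARα-/- livers.

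These shares were also above those of all bright probe sets, a set that includes the members' own probe sets. Among the 60 members with a mean above 9, 59 were higher in PPARα-/-, 57 in CREB3L3-/- and 59 in livers lacking both factors, whereas 24.8%, 30.1% and 24.3% of the 3145 probe sets above 9 were. Within the 60, brighter genes tended to change less, with Spearman correlations across genes between the level and the difference of -0.55, -0.40 and -0.57, and genes are not independent replicates. Over all 73 members these correlations were weaker, at -0.16, -0.04 and -0.23. The 10 brightest members had median differences of 0.49, 0.43 and 0.49 in the 3 comparisons, and the 28 members between 9 and 11 had 0.89, 0.66 and 1.01.

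**Figure D3:**
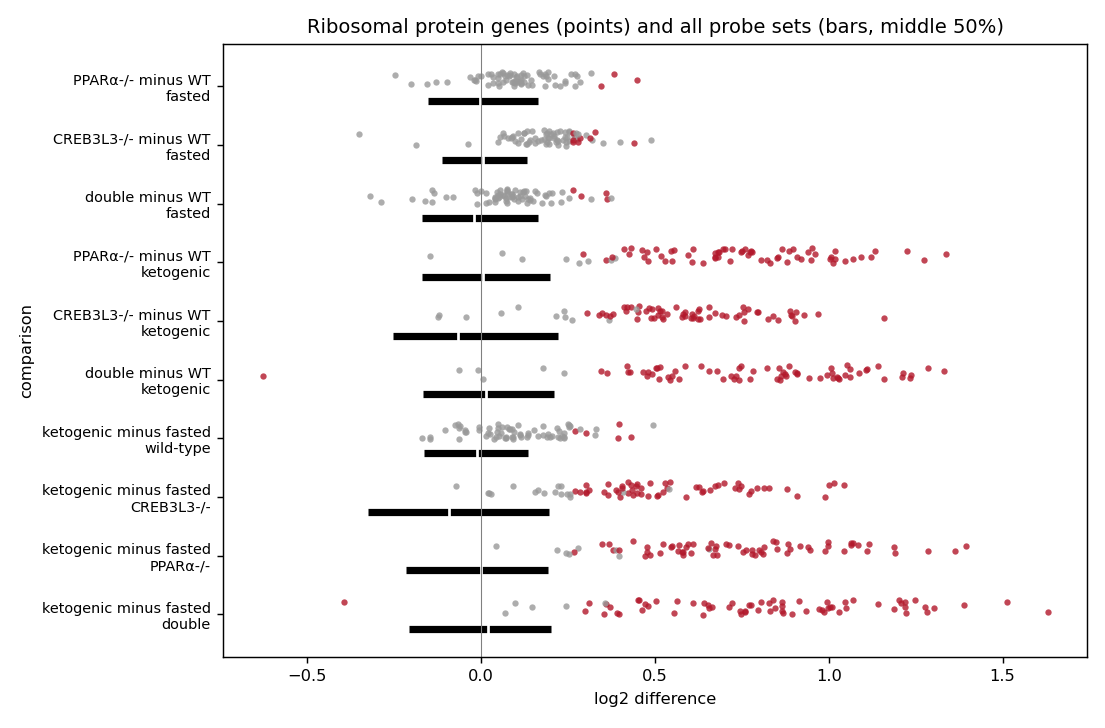
Log2 differences of the 73 ribosomal protein genes (points; red, called; grey, not called) in 10 comparisons, with the middle 50% of all probe sets (black bar) and their median (white tick). The points are shifted to the right in the knockouts against wild-type on the ketogenic diet, with medians of 0.72, 0.56 and 0.78, and in the knockouts when ketogenic livers are compared with fasted ones.

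The stalk proteins Rplp0, Rplp1 and Rplp2 form the flexible arm of the large subunit that recruits translation factors, and all 3 genes rose in all 3 knockouts. Rplp0 was 11.24, 11.28, 10.99 and 11.17 in the 4 wild-type livers on the ketogenic diet. It was 12.14, 12.21 and 12.17 in PPARα-/-, 12.04, 12.07, 12.09 and 12.07 in CREB3L3-/- and 12.19, 12.19, 12.33 and 12.21 in PPARα/CREB3L3-/- livers. Every knockout liver was above every wild-type liver, and the differences were 1.005, 0.90 and 1.06 with SEs of 0.08, 0.07 and 0.07 (limma, adjusted p = 5.33e-10, 3.2e-10 and 2.56e-11). Rplp1, at 11.41, 11.30, 11.31 and 11.24 in wild-type livers, reached 12.02 to 12.12 in CREB3L3-/-, 12.08 to 12.20 in PPARα-/- and 12.23 to 12.32 in livers lacking both factors. Its P was the lowest of all members in CREB3L3-/- livers (0.75, SE 0.05, adjusted p = 8.46e-12) and in livers lacking both factors (0.94, SE 0.05, adjusted p = 4.51e-13), and its difference in PPARα-/- livers was 0.83. Rplp2, read on a dim probe set, differed by 1.02, 0.62 and 1.28.

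Genes of the large subunit other than the stalk numbered 44, of which 38, 35 and 40 were higher in PPARα-/-, CREB3L3-/- and PPARα/CREB3L3-/- livers, with medians of 0.68, 0.52 and 0.71. Rpl35, whose protein sits near the exit of the nascent peptide tunnel, had the lowest P of all members in PPARα-/- livers. It measured 10.52, 10.33, 10.24 and 10.26 in wild-type livers, 11.40, 11.44 and 11.38 in PPARα-/-, 11.19, 11.20, 11.37 and 11.20 in CREB3L3-/- and 11.47, 11.47, 11.55 and 11.49 in PPARα/CREB3L3-/- livers. No knockout liver overlapped with wild-type, and the differences were 1.07, 0.90 and 1.16 with SEs of 0.07, 0.06 and 0.06 (adjusted p = 1.51e-11, 1.61e-11 and 5.23e-13). Rpl39, another tunnel protein, was among the largest changes. Its wild-type livers read 9.55, 9.53, 9.21 and 9.40, against PPARα-/- livers at 10.51 to 10.75, CREB3L3-/- livers at 10.13 to 10.64, and 10.48 to 10.76 in livers lacking both factors, which is 1.22, 0.97 and 1.24 higher. Rpl36a and Rpl13 also stood among the 10 lowest P values in each knockout, Rpl36a with 0.88, 0.69 and 1.01 and Rpl13 with 1.05, 0.84 and 1.11. Rpl23 and Rpl9 were among the 10 in PPARα-/- livers, at 0.72 and 0.85, Rpl31 in CREB3L3-/- livers at 0.60, and Rpl23 again in PPARα/CREB3L3-/- livers at 0.78. Rpl14, on a dim probe set, had the largest difference of all members in PPARα-/- livers at 1.34 (SE 0.15) and in CREB3L3-/- livers at 1.16 (SE 0.14), and differed by 1.23 (SE 0.14) in PPARα/CREB3L3-/- livers.

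Rpl5 and Rpl11, which carry the small ribosomal RNA of the large subunit and bind Mdm2 when ribosome assembly fails, changed less than the median member in all 3 knockouts. Rpl5 measured 11.36, 11.19, 11.03 and 11.19 in wild-type livers and was higher by 0.70 in PPARα-/-, 0.45 in CREB3L3-/- and 0.73 in livers lacking both factors. Rpl11 was 11.92 to 12.00 in wild-type livers and higher by 0.43, 0.34 and 0.42, and every knockout liver was above every wild-type liver. Rpl13a, which has a further role in silencing the mRNAs of inflammatory genes, rose by 0.75, 0.62 and 0.77.

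The small subunit held 26 members, of which 24 were higher in each of the 3 knockouts, with medians of 0.78, 0.60 and 0.88. Rps13 had the largest difference of the subunit in both groups that lack PPARα. It measured 8.74, 8.62, 8.46 and 8.70 in wild-type livers, 9.79, 9.99 and 9.93 in PPARα-/-, 9.34, 9.58, 9.63 and 9.39 in CREB3L3-/- and 10.00, 9.97, 9.97 and 9.92 in PPARα/CREB3L3-/- livers. The CREB3L3-/- livers lay between the wild-type livers and those of both groups that lack PPARα, which overlapped, and the differences were 1.27 (SE 0.08), 0.85 (SE 0.08) and 1.33 (SE 0.08). Rps20 rose by 1.13, 0.93 and 1.21, Rps15a by 1.09, 0.89 and 1.21, and Rps9, a protein of the decoding region, by 1.12, 0.83 and 1.14. Rps12 measured 11.32, 11.26, 11.05 and 11.19 in wild-type livers, and the knockouts were higher by 1.01, 0.90 and 1.03. For Rps3, which lies at the mRNA entry and was among the lowest P values in CREB3L3-/- livers, the differences were close together at 0.88, 0.89 and 0.91. The other small subunit genes among the 10 lowest P values were Rps18, at 0.76 in PPARα-/- and 0.87 in PPARα/CREB3L3-/- livers, Rps23, at 0.52 in CREB3L3-/- livers, and Rps7, at 0.74 in PPARα/CREB3L3-/- livers. Rps6, the substrate of the S6 kinases, had one of the smallest called changes of the subunit in each knockout, at 0.38, 0.35 and 0.50. Rps19, the gene most often mutated in Diamond-Blackfan anaemia, rose by 0.81, 0.75 and 1.09 on a dim probe set.

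**Figure D4:**
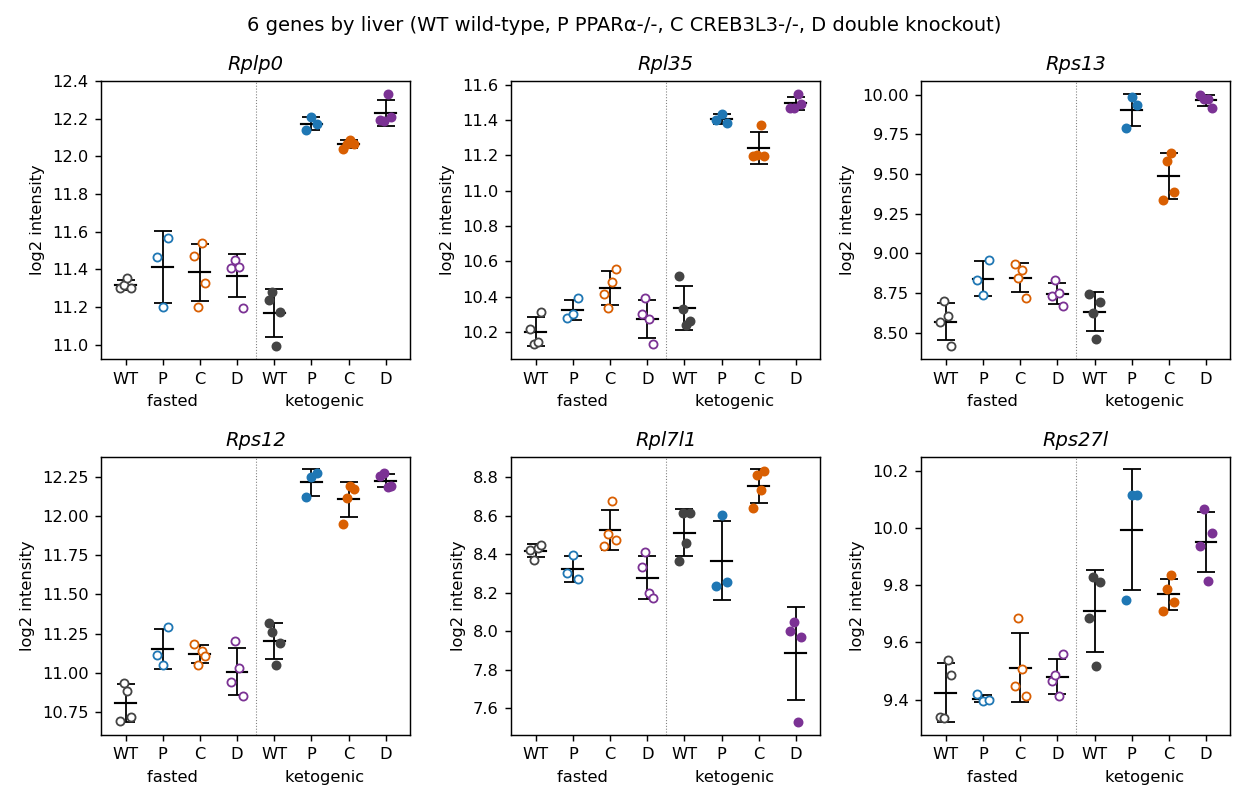
Log2 intensity of 6 genes in each liver (points; open, fasted; filled, ketogenic), with group means and SD; the vertical scales differ between panels and do not start at 0. Rplp0, Rpl35, Rps13 and Rps12 are higher in the 3 ketogenic knockout groups than in all other groups. Rpl7l1 is lowest in PPARα/CREB3L3-/- livers on the ketogenic diet, and the ketogenic groups overlap for Rps27l.

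The 6 genes called higher in none of the 3 knockouts were Rpl10l, Rpl39l and Rpl3l, which lay below the medians of the arrays, and Rps4l, Rps27l and Rpl7l1. All 6 are named as relatives of a conventional ribosomal protein. Rpl7l1, a paralog of Rpl7 whose yeast counterpart acts in large subunit assembly, read 8.37, 8.61, 8.46 and 8.62 in wild-type livers, 8.24, 8.60 and 8.26 in PPARα-/-, 8.64, 8.81, 8.73 and 8.83 in CREB3L3-/- and 8.00, 8.05, 7.53 and 7.97 in PPARα/CREB3L3-/- livers. The PPARα/CREB3L3-/- livers lay below all others, by 0.63 from wild-type (SE 0.10, adjusted p = 1.63e-05), and this was the member called lower. For PPARα-/- livers the difference was -0.15 (SE 0.10, adjusted p = 0.429), and for CREB3L3-/- livers 0.24 (SE 0.10, adjusted p = 0.0599). Rpl7 rose by 0.53, 0.47 and 0.66 in the same livers.

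Rps27l, a paralog of Rps27 known as a p53 target, read 9.68, 9.83, 9.52 and 9.81 in wild-type livers and 9.75, 10.12 and 10.11 in PPARα-/- livers. In CREB3L3-/- livers it read 9.71, 9.79, 9.83 and 9.74, and in PPARα/CREB3L3-/- livers 9.94, 10.07, 9.81 and 9.98, so that all groups overlapped or nearly touched. The differences were 0.28, 0.06 and 0.24 with SEs of 0.09, 0.08 and 0.08 (adjusted p = 0.0241, 0.641 and 0.0327), none of them called. In PPARα-/- livers the call was met without replicate 1 (0.41), with array weights (0.30) and after a repeated quantile normalization (0.32), which also gave the call in PPARα/CREB3L3-/- livers (0.31). Rps27 rose by 0.91, 0.37 and 0.97. Rps4l, which RefSeq annotates as a transcribed pseudogene, differed by 0.24, 0.45 and 0.18 with SEs of 0.22, 0.20 and 0.20, while Rps4x rose by 0.78, 0.59 and 0.85. A further 6 members, Rpl10, Rpl21, Rpl22, Rpl26, Rpl32l and Rpl35a, were called in some of the knockouts. For Rpl10, wild-type livers read 12.08, 12.15, 12.03 and 12.16, and it rose by 0.48 in PPARα-/- and 0.51 in PPARα/CREB3L3-/- livers, while the 0.24 of CREB3L3-/- livers (adjusted p = 0.000104) was below the fold required.

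The remaining probe sets of each gene were read in the same fit. Of the 55 members with several probe sets, every probe set was higher in 53 in PPARα-/-, 49 in CREB3L3-/- and 50 in livers lacking both factors, and these probe sets can share sequence. Ribosomal proteins that the symbol rule misses were 2, and both are of the small subunit. Rpsa, which also serves as a laminin receptor, rose by 0.92, 0.73 and 0.93, and Fau, made as a fusion with a ubiquitin-like protein, rose by 0.48 in PPARα-/- and 0.56 in PPARα/CREB3L3-/- livers.

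Did the 2 deletions add up? The interaction, the effect of CREB3L3 ablation in mice lacking PPARα minus its effect in mice that have PPARα, was lower for 55 members and higher for 0 on the ketogenic diet, against 10.0% and 5.94% of all probe sets. Its median over the members was -0.51, beside 0.07 for all probe sets. Rpl35 (-0.82, SE 0.09, adjusted p = 2.1e-07), Rpl29 (-0.66), Rplp1 (-0.64), Rps3 (-0.86), Rps21 (-0.82) and Rps23 (-0.52) had the lowest P values, followed by Rps12 (-0.89), Rps9 (-0.81), Rpl13 (-0.77) and Rpl15 (-0.63). Rplp0 and Rpl13a were at -0.84 and -0.60. Rpl7l1 (-0.72) was also among the 55, and the joint loss lowered this gene. On the log2 scale, then, the joint loss raised the others by less than the sum of both single effects.

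The mice lacking both factors were also compared with each single knockout. Between PPARα/CREB3L3-/- and PPARα-/- livers on the ketogenic diet, 0 members were higher and 1 was lower, against 0.824% and 1.59% of all probe sets, with a median of 0.04 over the members. The lower gene was Rpl7l1 (-0.48, SE 0.10, adjusted p = 0.0114), and this call was lost without replicate 2 of PPARα-/-, at -0.36, and with the arrays of these groups alone. Between PPARα/CREB3L3-/- and CREB3L3-/- livers, 20 members were higher and 1 was lower, against 8.72% and 11.7% of all probe sets, with a median of 0.18 beside 0.09 for all probe sets. Rps27 (0.60, SE 0.06, adjusted p = 1.91e-08), Rpl36 (0.63, adjusted p = 1.1e-07) and Rps14 (0.53, adjusted p = 5.23e-07) led the higher genes. Rps27 measured 10.11, 9.97, 10.14 and 9.87 in CREB3L3-/- livers and 10.68, 10.51, 10.62 and 10.69 in PPARα/CREB3L3-/- livers. The next were Rps18 (0.36), Rpl32l (0.74), Rps13 (0.48), Rpl10 (0.27), Rpl9 (0.35), Rpl36a (0.32) and Rps25 (0.37), and the lower gene was again Rpl7l1 (-0.87, SE 0.10, adjusted p = 6.26e-08). With the arrays of these groups alone the calls of Rpl10, Rpl36a and Rps25 were lost, and a repeated quantile normalization ended those of Rpl10 (0.16) and Rpl9 (0.25). Rpl10 also fell below the fold required without replicate 1 of CREB3L3-/- or without replicate 1 or 2 of PPARα/CREB3L3-/-, at 0.24 to 0.26.

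In the fasted state fewer members were called in each knockout, and the medians were smaller. In PPARα-/- livers 3 members were higher and 0 lower than in wild-type livers, against 2.23% and 1.77% of all probe sets, and the median was 0.10. In CREB3L3-/- livers 8 were higher and 0 lower, against 0.787% and 0.599%, with a median of 0.20. In PPARα/CREB3L3-/- livers 4 were higher and 0 lower, against 4.19% and 2.79%, with a median of 0.09. Each of these counts changed by more than 1.5-fold when single livers were left out, to 6 without replicate 2 of PPARα-/-, to 4 without replicate 1 of fasted wild-type and 5 without replicate 3 of CREB3L3-/-, and, for PPARα/CREB3L3-/-, to 1 without its replicate 2 and to 2 without its replicate 3, wild-type replicate 1 or wild-type replicate 4. For CREB3L3-/- the count was also 2 after median centring of the arrays and 3 after a repeated quantile normalization.

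Rpl3, which forms part of the peptidyl transferase centre, and Rpl12, at the base of the stalk, were called in all 3 fasted knockouts. These 3 comparisons have their wild-type livers in common. The share of all probe sets higher in all 3 was not counted, and it cannot exceed the 0.787% higher in CREB3L3-/- livers. Rpl3 measured 10.26, 10.49, 10.46 and 10.26 in fasted wild-type livers and 10.825, 10.626 and 10.996 in PPARα-/- livers. In CREB3L3-/- livers it was 10.86, 10.69, 10.88 and 10.79, and in PPARα/CREB3L3-/- livers 10.70, 10.90, 10.74 and 10.57. The wild-type livers lay below all others, with differences of 0.45, 0.44 and 0.36 and SEs of 0.09, 0.08 and 0.08 (adjusted p = 0.00168, 0.00399 and 0.00307). Rpl12 differed by 0.38, 0.33 and 0.29. Rps12 was the other gene in PPARα-/- livers, at 0.35, and was also called in CREB3L3-/- livers, at 0.31, together with Rpl23 (0.27), Rps18 (0.29), Rps26 (0.26), Rps15 (0.27) and Rps15a (0.28). Rpl10 (0.36, SE 0.04, adjusted p = 2.57e-06) and Rps9 (0.26) completed the list in PPARα/CREB3L3-/- livers. Fasted Rpl10 read 12.09, 12.13, 12.13 and 12.09 in wild-type livers and 12.47, 12.49, 12.51 and 12.42 in PPARα/CREB3L3-/- livers, with no overlap. Under all alternatives run for single genes, calls were kept by Rpl12 in PPARα-/- livers and by Rpl3 and Rpl12 in CREB3L3-/- livers, and each of the other fasted calls was lost under at least 1 of them, that of Rpl10 after a repeated quantile normalization (0.26).

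The fasted interaction was lower for 11 members and higher for 0, against 0.425% and 0.337% of all probe sets, with a median of -0.23. Rpl13a (-0.37, SE 0.08, adjusted p = 0.0476), Rpl23 (-0.32, adjusted p = 0.0557) and Rpl3 (-0.53, adjusted p = 0.0573) had the lowest P values. Rpl13a kept its call under all alternatives, while Rpl23 lost it without the intensity trend and with the mean of its probe sets (-0.29), and Rpl3 without replicate 3 of PPARα-/- (-0.44). The count depended on single livers and fell to 2 without replicate 3 of fasted PPARα-/-, and to 6 or 7 without wild-type replicates 1, 2 or 3, CREB3L3-/- replicate 3, PPARα-/- replicate 2 or PPARα/CREB3L3-/- replicates 1, 3 or 4. The effect of CREB3L3 ablation was larger on the ketogenic diet than in the fasted state for 36 members and smaller for 0, against 7.99% and 5.78% of all probe sets, with a median difference of effects of 0.35. Rplp1 (0.65, SE 0.07, adjusted p = 2.02e-07), Rplp0 (0.83), Rps3 (0.75) and Rpl35 (0.66) came first, and Rpl13, Rpl39, Rps9, Rps21, Rps23 and Rpl31 followed at 0.59, 0.78, 0.58, 0.56, 0.36 and 0.41.

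How did the regimens differ within a genotype? In wild-type mice 5 members were higher in ketogenic than in fasted livers and 0 were lower, against 2.53% and 1.72% of all probe sets, with a median of 0.09. They were Rpl3 (0.43, SE 0.08, adjusted p = 0.00138), Rps12 (0.40), Rps20 (0.39), Rps15a (0.30) and Rpl12 (0.27). The calls of Rpl3 and Rps12 were met under every alternative, and that of Rps20 was lost with the arrays of these groups alone. Rps15a and Rpl12 lost their calls with these arrays alone, without the intensity trend, and without replicate 1 or 4 of the fasted or replicate 1 or 2 of the ketogenic group, at 0.23 to 0.31 and 0.20 to 0.27 without a liver, and Rps15a also after a repeated quantile normalization (0.26) and with the mean of its probe sets (0.18). The count was 3 without replicate 1 or without replicate 2 of wild-type on the ketogenic diet, and 9 without replicate 3. In CREB3L3-/- mice 56 were higher and 0 lower, against 14.3% and 11.1%, with a median of 0.45. In PPARα-/- mice 65 were higher and 0 lower, against 5.74% and 4.46%, with a median of 0.68, and in PPARα/CREB3L3-/- mice 67 were higher and 1 lower, against 7.42% and 7.09%, with a median of 0.81. Rps20 showed the largest of these differences in PPARα/CREB3L3-/- mice apart from Rps19, rising by 1.51 from 9.40, 9.59, 9.37 and 9.31 to 10.84, 10.88, 10.97 and 11.04, and it rose by 1.29 in PPARα-/- and 1.04 in CREB3L3-/- mice. Rplp1 rose by 0.83 in CREB3L3-/-, 0.92 in PPARα-/- and 1.01 in PPARα/CREB3L3-/- mice. Rps27l, called in no knockout on the ketogenic diet, was called higher in ketogenic than in fasted livers of PPARα-/- mice (0.59, adjusted p = 4.14e-05) and PPARα/CREB3L3-/- mice (0.47, adjusted p = 6.67e-05), and measured 0.29 (adjusted p = 0.0301) in wild-type and 0.26 (adjusted p = 0.013) in CREB3L3-/- mice. Rpl7l1 was the lower member in PPARα/CREB3L3-/- mice at -0.39 (adjusted p = 0.00326), a call lost without replicate 3 of the ketogenic group (-0.27), without replicate 1 (-0.38) or 2 (-0.35) of the fasted group, with the arrays of these groups alone (-0.39) and after median centring (-0.32).

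Genes that act with the ribosome were read from lists. For each list below, the shares of all probe sets on the ketogenic diet were 6.11%, 12.8% and 7.11% higher in PPARα-/-, CREB3L3-/- and PPARα/CREB3L3-/- livers. Those lower were 4.81%, 8.56% and 6.87%. On the ketogenic diet 16 of 31 measured initiation factors were higher and 1 lower in PPARα-/-, 18 and 1 in CREB3L3-/- and 12 and 1 in livers lacking both factors, with medians of 0.30, 0.38 and 0.27. The initiation factor subunits Eif3f (0.82) and Eif3i (0.70) led in PPARα-/- livers and again in PPARα/CREB3L3-/- livers, at 1.05 and 0.75. Eif6, which keeps free large subunits from joining, rose by 0.93, 0.996 and 0.76. Of the 12 elongation and release factors, 6, 7 and 6 were higher and 0 lower. Among them, Eef2, the translocase, rose by 0.40 in PPARα-/- and 0.50 in PPARα/CREB3L3-/- livers, and Eef1g by 0.64 in PPARα-/- and 0.90 in CREB3L3-/- livers. The list of translation control genes went both ways, with 5 of 16 higher and 1 lower in PPARα-/-, 3 and 6 in CREB3L3-/- and 3 and 3 in livers lacking both factors. Myc, a transcriptional activator of ribosome genes, rose by 2.86 (SE 0.51) in PPARα-/- and 2.23 (SE 0.47) in PPARα/CREB3L3-/- livers, and in CREB3L3-/- livers Mtor and Deptor, which encodes an mTOR inhibitor, fell by 0.73 and 1.52.

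Ribosome biogenesis factors process ribosomal RNA and assemble both subunits, and on the ketogenic diet their count was lowest in the mice lacking both factors. Of 90 measured on this diet, 38 were higher and 1 lower in PPARα-/-, 50 and 2 in CREB3L3-/- and 23 and 3 in livers lacking both factors, with medians of 0.44, 0.49 and 0.25. The interaction on the ketogenic diet was lower for 47 of the 90 and higher for 1, against 10.0% and 5.94% of all probe sets. Ncl (nucleolin) rose by 0.87, 0.87 and 0.96 and Npm1 (nucleophosmin) by 0.81, 1.08 and 0.96, and Nhp2, of the pseudouridylation complex, by 0.90 in PPARα-/- and 1.34 in CREB3L3-/- livers. Of 18 genes of RNA polymerase I and its factors, which transcribe ribosomal RNA, 4, 7 and 3 were higher and 0 lower, with Polr1c at 0.82, 0.58 and 0.74. Fasted livers showed 10, 2 and 12 of the biogenesis factors higher and 0, 1 and 0 lower. Of all probe sets, 2.23%, 0.787% and 4.19% were higher and 1.77%, 0.599% and 2.79% lower in these fasted comparisons.

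**Figure D5:**
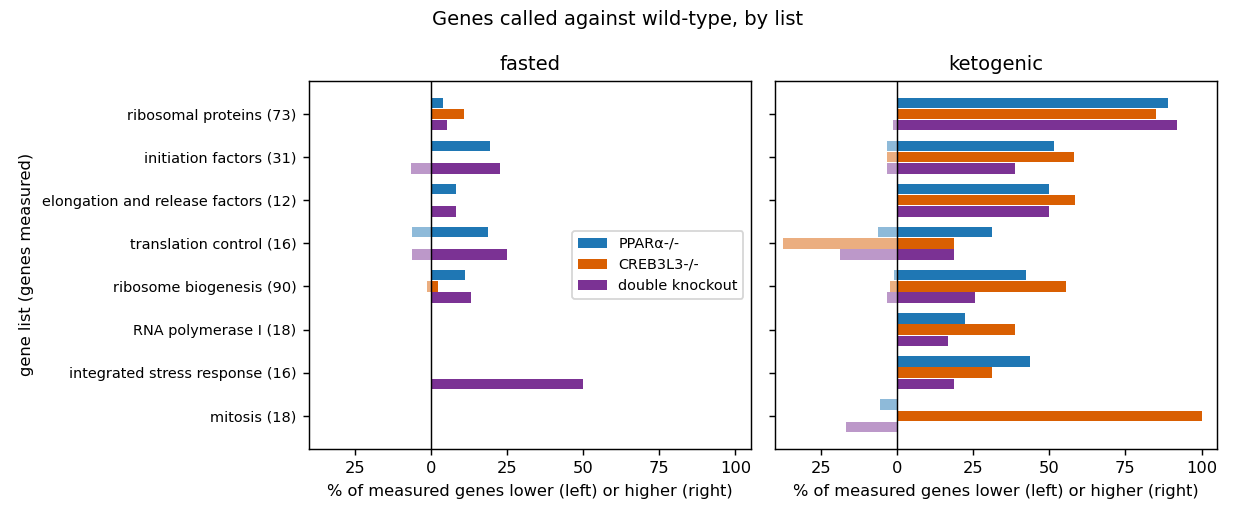
Share of the measured genes of each list that were called higher (right, full colour) or lower (left, pale) than wild-type in the fasted (left panel) and ketogenic (right panel) state, for the 3 knockouts; the number of genes measured is in parentheses. On the ketogenic diet the ribosomal proteins show the longest bars in PPARα-/- and PPARα/CREB3L3-/- livers, and in CREB3L3-/- livers mitosis, with 18 of 18 genes, is longer.

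Markers of other cells and states moved in the same livers, and their part in these results was not tested. The 18 mitosis genes were all higher in CREB3L3-/- livers on the ketogenic diet, with a median of 3.98, whereas in PPARα-/- livers 0 were higher and 1 lower, and in PPARα/CREB3L3-/- livers 0 and 3. The median level of the mitosis list was 7.26 to 8.18 in the CREB3L3-/- livers, 3.28 to 3.40 in PPARα-/- and 3.39 to 3.52 in PPARα/CREB3L3-/- livers, and 3.37 to 4.53 in wild-type livers. Macrophage genes were lower for 5 of 6 in both groups that lack PPARα and higher for 2 of 6 in CREB3L3-/- livers, with median levels of 7.17 to 7.61, 7.23 to 7.83 and 9.48 to 9.70, beside 8.39 to 9.11 in wild-type livers. Stellate cell genes were lower for 3 of 6 in both groups that lack PPARα and higher for 5 of 6 in CREB3L3-/- livers, with median levels of 4.99 to 5.40, 5.25 to 6.67 and 7.56 to 8.12, beside 5.77 to 6.38 in wild-type livers. Of 5 hepatocyte genes, 4 were lower in each knockout, with median levels of 12.36 to 12.38, 12.52 to 12.83 and 12.19 to 12.55 beside 13.004 to 13.09 in wild-type livers. Ttr, a plasma carrier protein made by hepatocytes, fell by 0.77 in PPARα-/-, 0.64 in CREB3L3-/- and 0.74 in livers lacking both factors. Of 15 p53 targets, 6, 10 and 6 were higher and 0, 0 and 1 lower, and of 16 genes of the integrated stress response 7, 5 and 3 were higher. Slc7a11, a cystine transporter of the latter list, rose by 3.84 in PPARα-/- and 5.32 in CREB3L3-/- livers. In the 6 remaining lists of cell type markers, 0 to 3 genes were called in either direction in each knockout on the ketogenic diet. Measured genes in them numbered 4 for cholangiocytes, 4 for neutrophils, 5 for T and NK cells and 4 for B and plasma cells. Sinusoidal endothelium had 5 and erythroid cells 2, so a few calls can be a large part of such a list.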

How the data were processed

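Total RNA of single livers was hybridized to whole-transcript Affymetrix Mouse Gene ST arrays. The deposited values are log2 intensities that the authors made by Robust Multichip Averaging (RMA), 1 for each of 35556 probe sets on 30 arrays, and they were used as deposited. The methods name a remapped probe definition, but the identifiers are the manufacturer's, and a gene symbol was taken from the platform annotation. Of the probe sets, 21218 carried 1 symbol, 1881 several and 12457 none. The number of arrays limits the precision. Replicates are livers of different mice, as stated in the methods.

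A linear model with a mean for each of the 8 groups was fitted to all probe sets (limma 3.58.1 in R 4.3.3, empirical Bayes with an intensity trend, 22 residual and 3.47 prior degrees of freedom). A probe set was called at P under 0.001 with a fold over 1.2, the study's criteria. Tests were two-sided, with p values adjusted by the Benjamini-Hochberg method across the whole array. The script was tested on simulated data. The alternatives tried were the groups compared alone, the replicate block, array weights, other variance models including the intensity-based one of the methods, 2 other scalings, the mean of a gene's probe sets, a filter on dim probe sets, other call rules and leaving out each liver. Plots used matplotlib 3.10.9 under Python 3.11.15.

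The genes named were, for each comparison, up to 10 called members with the lowest P in each direction, the paralog pairs, the stalk genes, Rpl5, Rpl11, Rps6, Rps19 and Rpl13a, the extremes of level and of variation, and up to 4 genes of each other list by lowest P. The 18 lists hold 299 genes, of which 259 were measured, and cover ribosomal proteins outside the rule, initiation, elongation and release factors, translation control, ribosome biogenesis, RNA polymerase I, mitosis, p53 targets, the integrated stress response and markers of 9 cell types. Members and lists were chosen with earlier results of these data known. Of the 15 comparisons 4 were added after the values were seen: ketogenic against fasted in PPARα-/- and in PPARα/CREB3L3-/- mice, PPARα/CREB3L3-/- against CREB3L3-/- on the ketogenic diet, and the fasted interaction.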

Additional observations from a re-analysis of the deposited data

Results flagged for a closer look

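Livers standing apart within groups of 4 were looked for in 18 measures, the members' median and 17 genes, by Dixon's test, which flags about 1 in 20 groups by chance. Of 108 groups tested, 7 had such a liver, in 4 of the groups of mice. In PPARα/CREB3L3-/- livers on the ketogenic diet, replicate 3 was the highest for Rplp0 (12.33, the nearest liver 12.21) and for Rplp1 (12.32, nearest 12.25) and the lowest for Rpl7l1 (7.53, nearest 7.97). Replicate 4 of the fasted PPARα/CREB3L3-/- livers was the lowest for Rplp0 (11.20, nearest 11.41). In CREB3L3-/- livers on the ketogenic diet, replicate 3 was the highest for Rpl35 (11.37, nearest 11.20) and replicate 4 the lowest for Rpl11 (12.21, nearest 12.32). Replicate 3 of the wild-type livers on the ketogenic diet was the lowest for Rpl3 (10.69, nearest 10.82).

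Effects that differed between groups by their own test were the interaction on the ketogenic diet, for 55 members, the effect of CREB3L3 ablation between the regimens, for 36 members, and the fasted interaction, for 11 members. These members were lower, higher and lower, beside 10.0%, 7.99% and 0.425% of all probe sets in these directions. The fasted count fell to 1 at an adjusted p under 0.05 and to 2 without replicate 3 of fasted PPARα-/-.

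Probe sets with several symbols were outside the rule, and 62 of them carry a ribosomal protein symbol, 4 of whose genes (Rpl22l1, Rpl32, Rpl37a and Rps16) have no probe set among the members. On the ketogenic diet 54 of the 62 were higher than in wild-type livers where PPARα was lacking, 52 where CREB3L3 was lacking and 54 where both were. Of all probe sets, 6.11%, 12.8% and 7.11% were higher. Lower were 0, 3 and 0 of the 62, beside 4.81%, 8.56% and 6.87% of all probe sets.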

How the results depend on the processing

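Beside leaving out single livers, 12 alternatives were run. The medians of all 15 comparisons kept their sign under each scaling. The test of the methods, a robust trend and the replicate block moved no count by over 1.5 times and no median by over the spread of 0.046 between livers. With the compared groups alone, the members called were 1 for fasted PPARα-/-, 1 for fasted PPARα/CREB3L3-/-, 0 for PPARα/CREB3L3-/- against PPARα-/-, 10 against CREB3L3-/-, 2 for the diet in wild-type mice and 7 for the fasted interaction. Array weights gave 13 for fasted CREB3L3-/-, and no intensity trend gave 2 for fasted PPARα/CREB3L3-/-, 3 for the diet in wild-type mice and 4 for the fasted interaction. Median centring gave 2 for fasted CREB3L3-/- and PPARα/CREB3L3-/-, 14 for the diet in wild-type mice and 5 for the fasted interaction. It gave medians of 0.029 for fasted PPARα/CREB3L3-/-, 0.51 and 0.72 for CREB3L3-/- and PPARα/CREB3L3-/- on the ketogenic diet, and 0.17, 0.51, 0.76 and 0.88 for the diet in wild-type, CREB3L3-/-, PPARα-/- and PPARα/CREB3L3-/- mice. Repeated quantile normalization gave counts of 3 for fasted CREB3L3-/-, 2 for fasted PPARα/CREB3L3-/- and 5 for the fasted interaction, and medians of 0.50 and 0.76 for the diet in CREB3L3-/- and PPARα/CREB3L3-/- mice and 0.41 for the CREB3L3 effect between regimens. The mean of all probe sets gave counts of 5 for fasted CREB3L3-/- and 7 for the fasted interaction, and medians of 0.77 and 0.86 for PPARα-/- and PPARα/CREB3L3-/- on the ketogenic diet and 0.73 and 0.86 for the diet in these mice. Without dim probe sets the median of PPARα/CREB3L3-/- on the ketogenic diet was 0.84. Without the fold, counts were 8 for fasted PPARα-/-, 25 for fasted CREB3L3-/- and 12 for the diet in wild-type mice, and an adjusted p under 0.05 gave 6 for fasted PPARα-/- and 1 for the fasted interaction. The cause of these shifts was not tested, beyond the fewer arrays or other threshold that some alternatives use.

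Leaving out single livers on the ketogenic diet gave 64 to 66 members for PPARα-/-, 60 to 63 for CREB3L3-/-, 68 for PPARα/CREB3L3-/-, 49 to 56 for the interaction, 0 to 1 against PPARα-/- and 15 to 26 against CREB3L3-/-, with medians of 0.68 to 0.76, 0.50 to 0.59, 0.75 to 0.82, -0.53 to -0.47, 0.03 to 0.07 and 0.16 to 0.19. In fasted livers it gave 2 to 6, 4 to 11 and 1 to 4 for the same knockouts and 2 to 10 for the interaction, with medians of 0.08 to 0.13, 0.18 to 0.21, 0.07 to 0.10 and -0.24 to -0.20. The diet gave 3 to 9 in wild-type, 52 to 57 in CREB3L3-/-, 62 to 66 in PPARα-/- and 66 to 68 in PPARα/CREB3L3-/- mice, with medians of 0.079 to 0.14, 0.43 to 0.47, 0.67 to 0.73 and 0.79 to 0.83, and the CREB3L3 effect between regimens 30 to 41, with medians of 0.30 to 0.38. Only Rps27l changed sign among the genes tested, to -0.0032 in fasted PPARα/CREB3L3-/- livers with median centring, to -0.0066 in CREB3L3-/- livers without wild-type replicate 3 on the ketogenic diet and to 0.017 in fasted PPARα-/- livers without fasted wild-type replicate 3, where leaving out other livers gave values down to -0.051.

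Livers of equal replicate number did not deviate together, with correlations of -0.087 to 0.12 over 44 pairs, 2 of them over 0.1, so the numbers were not taken as pairs. With the replicate block the count was 9 for fasted CREB3L3-/-, 61 for CREB3L3-/- on the ketogenic diet, 53 for the interaction on this diet and 8 for the fasted interaction.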
